A study of Mus musculus with 6 samples.

Results

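The 9 genes described here, Runx2, Sp7, Alpl, Bglap, Bglap2, Ibsp, Spp1, Dmp1 and Pth1r, are the core genes of the osteoblast, the bone-forming cell among 21631 autosomal and X-linked genes annotated as protein-coding. They were named for their known role, but the group was chosen by an earlier difference between old and young at osteoblast genes among the strongest peaks, so the values below are a description of that choice as much as a comparison. Each locus was the RefSeq gene with 10 kb on each side, and loci that overlap were merged, which left 8 windows because Bglap and Bglap2 lie side by side. Chromatin accessibility was measured by Omni-ATAC, in which a transposase cuts open DNA, in cultured bone marrow macrophages of wild-type BALB/c mice. The old mice were more than 78 weeks of age and the young mice 3 weeks, with 3 libraries per age and 50000 cells in each library. The cells were grown from marrow of crushed long bones as the adherent fraction and gated as F4/80+ CD169+, per the study's design text. The labels do not say whether the libraries of an age came from separate mice, so p-values reflect differences among libraries that could be technical replicates.

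Osteoblasts arise from marrow stromal cells, a lineage separate from that of macrophages, under the transcription factor RUNX2 and then SP7 (osterix). Maturing osteoblasts express alkaline phosphatase, which frees phosphate for mineral, and then the matrix proteins bone sialoprotein, osteopontin and osteocalcin. Osteopontin is also made by macrophages and osteoclasts. The receptor for parathyroid hormone, PTH1R, is a hormone receptor of osteoblasts and osteocytes.

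One peak list was available per library, and a value below is the number of base pairs (bp) that peaks cover in a locus. The whole lists held 245667, 227978 and 215947 peaks in old libraries 1 to 3, against 243924, 223018 and 254410 in young libraries 1 to 3, and covered 48.2 to 63.8 Mb in old against 52.4 to 66.1 Mb in young. The second kind of list held the 50000 peaks of each library selected on the highest −log10 q, called the strongest peaks here, which covered 22.4 to 28.0 Mb in old and 24.4 to 28.0 Mb in young. Read depth is unknown, and a site without a peak may still be open below the caller's threshold. Adgre1, the gene of F4/80, had a scaled covered length of 1295, 1412 and 1089 bp in old libraries against 1246, 955 and 1110 bp in young libraries. Siglec1, the gene of CD169, had peaks among the strongest in all 6 libraries, with 858, 862 and 250 bp in old and 971, 1506 and 946 bp in young. Both defining markers of the gate therefore lay in called open chromatin at both ages.

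RefSeq start sites (GRCm38.p6, the assembly whose primary chromosomes mm10 shares) were at hand for 7 of the 9 genes, as 12 start sites. The 250 bases before the start are shown for the 4 genes whose start-site peaks are compared below. They come from the reference genome, not from the BALB/c mice. Capitals in Bglap, Runx2 and Spp1 mark the core RUNX motif TGTGGT, here present as its reverse complement ACCACA, and in Spp1 also the ETS motif GAGGAAG. Capitals in Alpl mark a pair of GC boxes (GGGCGG) that overlap by 1 base.
Bglap: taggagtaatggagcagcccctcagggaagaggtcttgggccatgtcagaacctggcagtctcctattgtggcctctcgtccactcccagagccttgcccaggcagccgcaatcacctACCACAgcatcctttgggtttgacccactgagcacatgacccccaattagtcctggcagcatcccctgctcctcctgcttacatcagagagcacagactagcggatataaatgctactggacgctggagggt
Runx2: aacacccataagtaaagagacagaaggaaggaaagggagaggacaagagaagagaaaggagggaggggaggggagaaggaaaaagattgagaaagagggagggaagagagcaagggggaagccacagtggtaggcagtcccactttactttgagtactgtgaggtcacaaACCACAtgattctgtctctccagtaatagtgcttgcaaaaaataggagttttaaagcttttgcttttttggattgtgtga
Spp1: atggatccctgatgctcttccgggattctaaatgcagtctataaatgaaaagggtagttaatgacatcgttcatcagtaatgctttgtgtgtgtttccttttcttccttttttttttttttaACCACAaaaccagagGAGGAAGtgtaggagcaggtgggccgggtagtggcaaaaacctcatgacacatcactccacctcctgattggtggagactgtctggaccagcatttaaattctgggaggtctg
Alpl: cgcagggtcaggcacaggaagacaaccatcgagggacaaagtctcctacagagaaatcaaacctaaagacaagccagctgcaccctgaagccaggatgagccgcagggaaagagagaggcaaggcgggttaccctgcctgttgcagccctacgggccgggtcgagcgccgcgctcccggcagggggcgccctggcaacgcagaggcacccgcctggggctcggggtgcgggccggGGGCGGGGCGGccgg
The Bglap stretch is chr3:88384467-88384716 (minus strand), and its RUNX match lies 132 to 127 bases before the start. The Runx2 stretch is chr17:44814628-44814877 (minus strand), with its match 80 to 75 bases before the start. The Spp1 stretch is chr5:104434861-104435110 (plus strand), with the RUNX match at 128 to 123 and the ETS match at 113 to 107 bases before the start. The Alpl stretch is chr4:137796385-137796634 (minus strand), with the GC boxes at 15 to 10 and 10 to 5 bases before the start. Searched on both strands of the 250 bases before each of 32619 RefSeq start sites, TGTGGT occurred in 13.9%, GAGGAAG in 10.7%, GGGCGG in 33% and the AP-1 motif TGANTCA in 6.78%. Among the 12 start sites of these genes, 4 had a TGTGGT match, the fourth being the second start of Dmp1, and none had TGANTCA. These matches describe letters in the reference and not binding.

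On the whole deposited lists, the Bglap locus of osteocalcin was covered over a shorter length in old than in young macrophages, and it was the 1 of the 9 loci called narrower, at a log2 difference of -0.53 (SE 0.12). The other 8 loci did not pass the test, and the means of Runx2 and Sp7 differed by less than the SD of either age. Among all 16952 loci tested, 0.962% were called in either direction and 0.578% were called narrower (limma, adjusted p under 0.05). All 9 loci passed the filter on low coverage, 8 of them had a lower and 1 a higher estimate in old, and their median was -0.17 beside 0.01 for all loci. After scaling to the library, the 3 old values lay on one side of the 3 young values at 5 of the 9 loci, beside 17.0% of all loci. Since the genes were chosen with an old to young difference in the same libraries known, nothing further is read from these counts. The libraries are bulk, so a change in all cells and a change in the share of cells with an open site cannot be told apart.

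**Figure D1:**
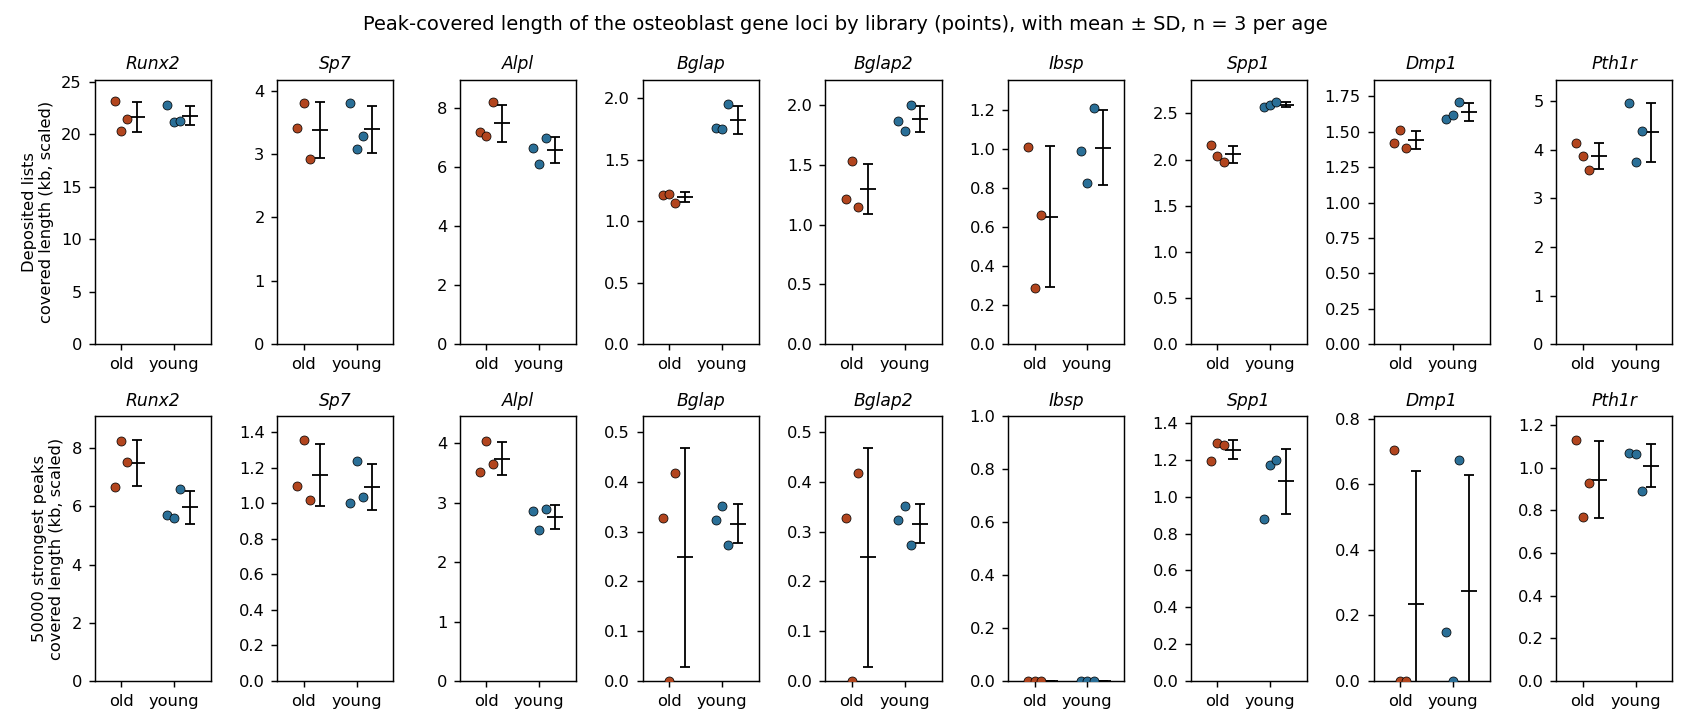
Peak-covered length in kb, scaled to the library, of each of the 9 loci in the 3 old (red) and 3 young (blue) libraries, for the deposited lists (upper row) and the 50000 strongest peaks (lower row); bars give the mean and SD, and bars that would pass below 0 stop at the axis. Bglap and Spp1 are lower in all old libraries in the upper row, Alpl is higher in all old libraries in both rows, and Ibsp is at 0 in the lower row.

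Bglap and Bglap2 encode osteocalcin, a late osteoblast matrix protein, in neighbouring near-identical copies (chr3:88383495-88384466 and chr3:88377736-88378701). Peaks covered 1353, 1041 and 998 bp of the Bglap locus in the 3 old libraries, against 1911, 1640 and 2233 bp in the 3 young libraries. Every old library was below every young one, before and after scaling, and the scaled means were 1195 ± 41.8 bp in old and 1822 ± 112 bp in young (SD, n = 3 each). The adjusted p of Bglap was 0.0367 (limma). It was over 0.05 when any 1 library other than old library 1 was left out, reaching 0.189 without young library 3, while the difference stayed between -0.56 and -0.49, and the adjusted p was 0.421 when peaks below a −log10 q of 2 were dropped (-0.51). With 25 kb windows the difference was -0.35 and for the number of peaks -0.01, neither called. The Bglap2 locus, which shares most of these peaks, had 1353, 1303 and 998 bp in old and 2023, 1669 and 2291 bp in young, a difference of -0.48 (SE 0.13, limma adjusted p = 0.0841). With 5 kb windows the Bglap2 difference was -0.25 (SE 0.14, limma adjusted p = 0.510).

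Part of the osteocalcin difference sat at the Bglap start site. The region over it, chr3:88384412-88385121, held no peak in old library 1 and 244 and 230 bp of peaks in old libraries 2 and 3, against 704, 574 and 579 bp in the young libraries. Of the 300 bases around the start, peaks covered 0, 244 and 225 in old libraries and 299, 300 and 299 in young libraries. Without scaling, old values below all young ones were found at 2 of the 12 start sites, the other being an inner start of Pth1r. Of all 32619 start sites, 800 (2.45%) had this order and 151 had all old values above all young ones. These unscaled values also carry the differences in covered length between libraries. The peaks were weak, between ranks 92859 and 166527 of their lists where called, and no library had one here among its 50000 strongest. The remaining regions of the merged window summed to 1353, 1088 and 768 bp in old and 1319, 1095 and 1712 bp in young, which overlap.

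At the end of Bglap2 that corresponds to the Bglap start, chr3:88378672-88379339, peaks covered 250, 183 and 181 bp in old libraries and 389, 294 and 645 bp in young libraries. This region was singled out after its values were seen. The merged window also holds Bglap3, Paqr6 and Pmf1, and its peaks among the strongest 50000 lay over the non-coding genes Gm21956 and Gm6821 rather than over an osteocalcin gene. How the authors treated reads that match several of these copies is not given in the sources used here, so the division of signal between Bglap, Bglap2 and Bglap3 is uncertain.

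**Figure D2:**
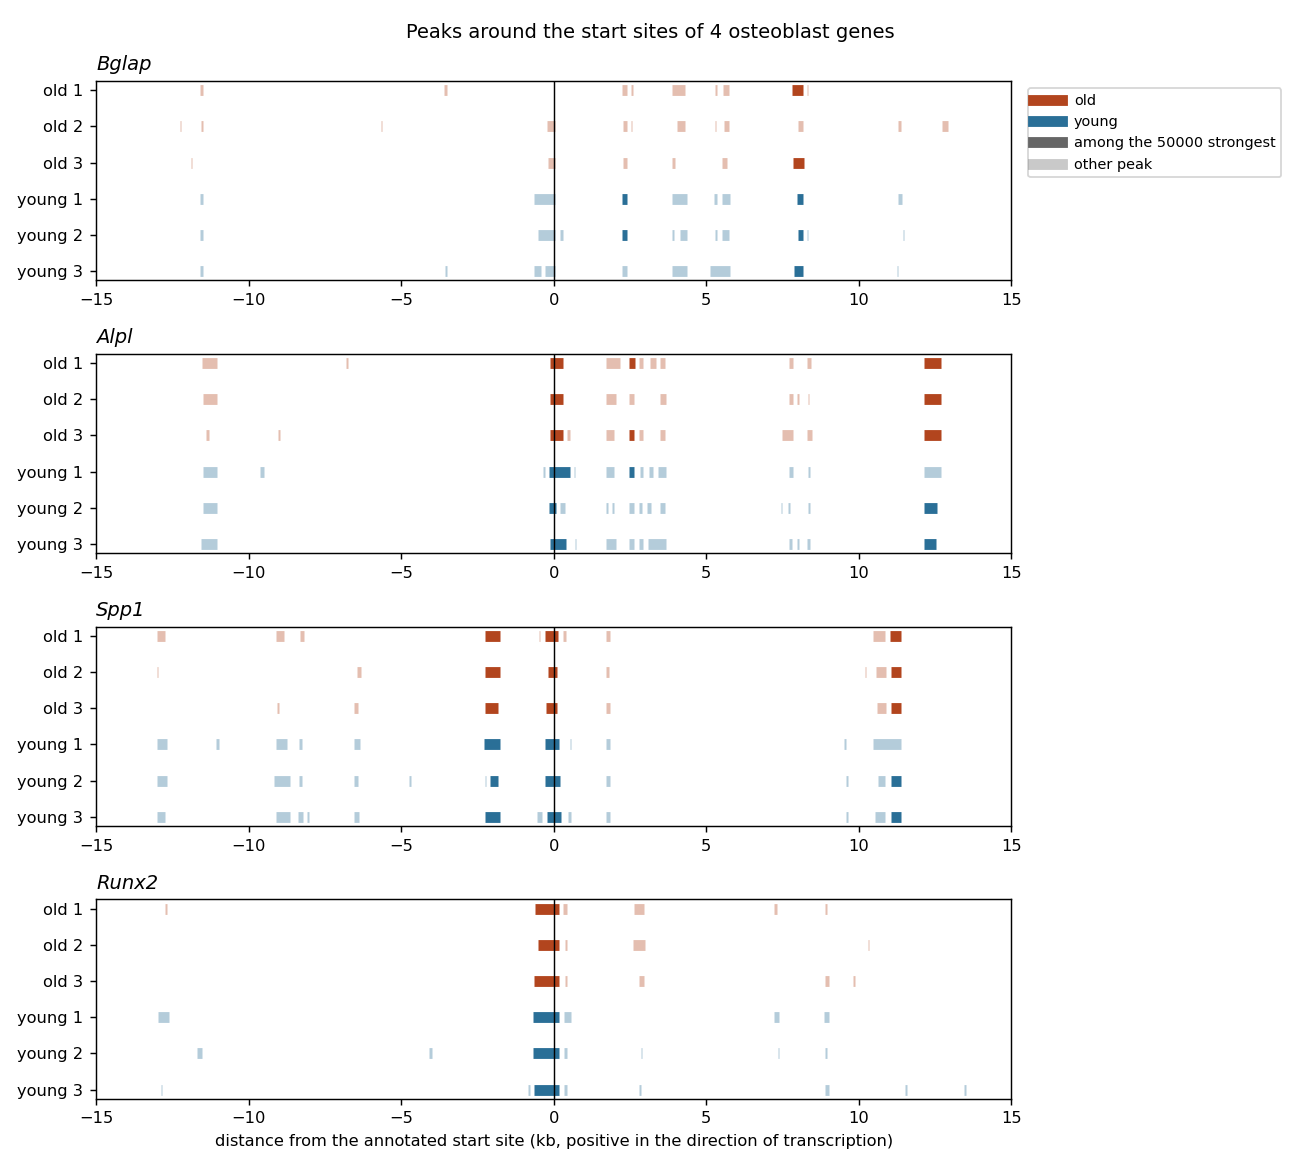
Peaks of each library within 15 kb of the start sites of Bglap, Alpl, Spp1 and Runx2, in kb along the direction of transcription, with old libraries (red) above young libraries (blue); full colour marks peaks among the 50000 strongest of their library and pale colour marks other peaks. The peak over the Bglap start is absent in old library 1 and shorter in old libraries 2 and 3, the Runx2 and Spp1 starts are marked in all 6 libraries, and the Alpl peak 12126 bp inside the gene is in full colour in every old library and in young libraries 2 and 3.

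Alpl, the gene of tissue-nonspecific alkaline phosphatase, was the one locus with a higher estimate in old on the deposited lists. Peaks covered 8033, 5988 and 7131 bp in old against 7224, 5727 and 8009 bp in young, and the groups overlap. After scaling, the old libraries (7208, 7042 and 8198 bp) lay above the young ones (6657, 6123 and 6996 bp), a difference of 0.18 (SE 0.08) that did not pass the test (limma adjusted p = 0.338). Counting peaks in place of their length turned its direction (-0.30, SE 0.12). Among the 50000 strongest peaks the separation was wider, with 3853, 3557 and 3304 bp in old and 3045, 2453 and 3150 bp in young. There the difference was 0.41 (SE 0.09), and it is given as a description because the earlier result behind the choice of genes came from such lists. Among the 25000 strongest, Alpl had 3180, 2664 and 2694 bp in old against 0, 244 and 407 bp in young, a difference of 3.09 (SE 0.37). Part of this rests on the cut at 25000. The region chr4:137744419-137745234 was covered over 793, 804 and 800 bp in old and 804, 779 and 816 bp in young. Its ranks were 24190, 23028 and 18068 in old and 28449, 40282 and 25661 in young, on either side of the cut. Alpl was called wider among the 25000 strongest, beside 0.923% of 12243 loci called wider and 1.37% called in either direction. Nothing is read from that call.

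The Alpl signal came from a few sites inside and behind the gene. The region with the best rank in any library, chr4:137783690-137784258, lies within the gene 12126 bp from the start. It ranked 9153, 11345 and 10004 in old libraries and 52634, 32732 and 44931 in young libraries, though a peak was called there in all 6 deposited lists. Because that best rank came from an old library, part of this contrast may lie in the choice. In each young library another Alpl region ranked better. These were chr4:137748649-137749128 at 27239 in young library 1 and 16124 in young library 3, and the start-site region at 23210 in young library 2. A second region past the far end of the gene, chr4:137735547-137736546, ranked 21313, 12079 and 15531 in old and 35555, 33071 and 35442 in young. The start-site region, chr4:137795851-137796539, ranked 24775, 29401 and 30025 in old and 40360, 23210 and 39518 in young, so the ages overlap there. A weaker region inside the gene, chr4:137757364-137758079, was covered over 653, 505 and 493 bp in old and 91, 43 and 210 bp in young. Another weak region inside the gene, chr4:137762829-137763127, had the opposite order, with 0, 0 and 82 bp in old and 298, 257 and 224 bp in young. The second region and both weak regions were singled out after their values were seen, and ranks from lists of different length are a description only.

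**Figure D3:**
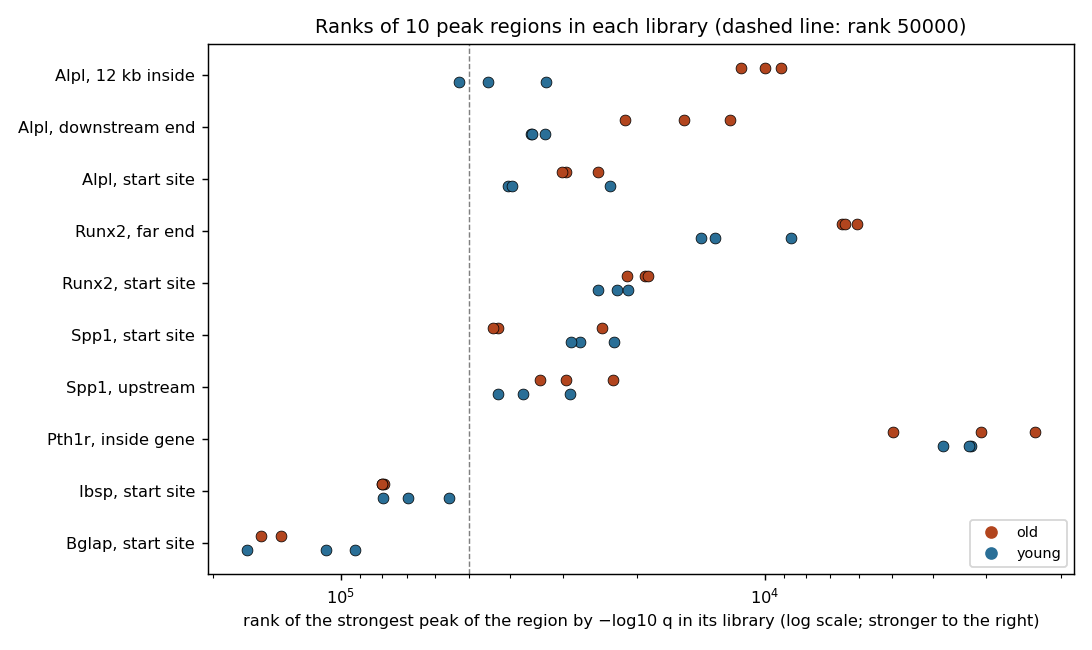
Rank of the strongest peak of 10 regions by −log10 q within each library (log axis, stronger to the right), for old (red) and young (blue) libraries; the dashed line marks rank 50000, and old library 1 has no point at the Bglap start because no peak was called. The inner Alpl region stands at ranks 9153 to 11345 in old and 32732 to 52634 in young, and of the 10 regions drawn the Pth1r region has the best rank in each library.

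Runx2, the factor that commits cells to the osteoblast lineage, spans 318.8 kb of chr17:44495987-44814797 and held 161 of the 290 peak regions in the 8 windows. Peaks covered 25809, 17275 and 18673 bp in old and 24721, 19767 and 24374 bp in young. The groups overlap, and the difference was -0.01 (SE 0.05, limma adjusted p = 0.976). The start site, chr17:44814441-44815303, was open in all 6 libraries, with all 300 bases around the start covered and ranks of 19152, 18802 and 21110 in old against 22365, 21004 and 24751 in young. In the strongest lists Runx2 had 7306, 7258 and 6801 bp in old and 6061, 5413 and 7203 bp in young, a difference of 0.32 (SE 0.10).

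Within Runx2 the strongest peak was not at the 1 Runx2 start site at hand, and other starts of the gene were not examined. It lay at chr17:44776673-44777962, over the start of Supt3, an overlapping gene of a transcription co-activator complex, with ranks between 2771 and 8453. A region near the far end of Runx2, chr17:44500258-44500989, ranked 6565, 6061 and 6470 in old and 13100, 14165 and 8680 in young. Another inside the gene, chr17:44654400-44654875, had the opposite order. It ranked 34893, 32124 and 27660 in old and 20064, 21486 and 23352 in young. Both regions were singled out after their values were seen. One region, chr17:44550338-44550628, was among the strongest in all 3 old libraries and in no young library, the 1 such region of the 44 in the windows (2.27%, against 3.29% in the genome). It was present in all 6 deposited lists, at ranks 29972, 38502 and 38637 in old and 69774, 67503 and 65623 in young.

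Sp7, the factor that acts after RUNX2, had the densest peaks of the 9 loci on the deposited lists, with 11.1% of its window covered at both ages. The covered length was 3800, 3235 and 2547 bp in old and 4132, 2878 and 3759 bp in young, and the groups overlap (difference -0.01, SE 0.10, limma adjusted p = 0.992). Its signal among the strongest peaks came from both sides of the gene. The region at chr15:102350303-102351186 covers the start of the neighbouring gene Aaas (a nuclear pore protein) at ranks 3426 to 7627, and the other is chr15:102376705-102377586, at ranks 16870 to 24614. Over one end of Sp7 itself, chr15:102366658-102367332, peaks outside the strongest lists covered 563, 521 and 395 bp in old and 602, 422 and 548 bp in young. The Sp7 locus had 1201, 1194 and 922 bp in old and 1066, 1201 and 1129 bp in young among the strongest peaks.

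Spp1, the gene of osteopontin, an adhesive phosphoprotein of bone matrix, lies at chr5:104435111-104441053. Peaks covered 2405, 1731 and 1720 bp in old and 2792, 2427 and 3000 bp in young, so every old library was below every young one. The scaled means were 2057 ± 92.2 bp in old and 2596 ± 23.9 bp in young (SD, n = 3 each), and the difference of -0.31 (SE 0.10) did not pass the test (limma adjusted p = 0.145). With peaks of a −log10 q of at least 5 it was 0.01, and with 5 kb windows it was -0.05 (SE 0.11). That order did not hold among the strongest peaks, with 1308, 1136 and 1156 bp in old and 938, 1136 and 1306 bp in young. The start-site peak, chr5:104434832-104435345, and one 1760 bp upstream, chr5:104432837-104433351, were among the strongest in all 6 libraries. Weak peaks further upstream, chr5:104425956-104426473, covered 278, 0 and 59 bp in old and 352, 518 and 458 bp in young, and were singled out after their values were seen.

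Ibsp (bone sialoprotein, which seeds mineral) and Dmp1 (a phosphoprotein of osteocytes) neighbour Spp1 on chromosome 5 and had few peaks. Ibsp had 1128, 243 and 577 bp in old and 1074, 770 and 1383 bp in young, which overlap (difference -0.58, SE 0.28, limma adjusted p = 0.408). The difference was -0.23 without old library 2 and -0.88 without old library 1. Its start site, chr5:104298915-104299560, was called in all 6 libraries, over 582, 133 and 143 bp in old and 441, 180 and 646 bp in young, at ranks no better than 55688. No library had a peak in the Ibsp window among its strongest 50000. Dmp1 had 1587, 1286 and 1208 bp in old and 1727, 1517 and 1961 bp in young (difference -0.17, SE 0.12, limma adjusted p = 0.614). No peak overlapped the outermost Dmp1 start in any library, while chr5:104201201-104201890, inside the gene, was called in all 6.

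Pth1r, at chr9:110722085-110747145, held the single best rank of the 8 windows, 2300 in old library 3. Its region, chr9:110732360-110733172, lies inside the gene and ranked 4969, 3087 and 2300 in old and 3266, 3298 and 3798 in young. The locus had 4609, 3295 and 3128 bp in old and 5382, 3504 and 5027 bp in young, which overlap (difference -0.16, SE 0.10, limma adjusted p = 0.532). At the inner start mentioned above, peaks covered 63, 39 and 0 of 300 bases in old and 106, 66 and 84 in young. Beside its strongest region, weak peaks at chr9:110731982-110732254 covered 207, 183 and 248 bp in old, and none was called in young. A second weak region, chr9:110741845-110742055, was likewise found only in the 3 old libraries, over 98, 211 and 29 bp.

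Per length of window on the deposited lists, peaks covered 11.1% of the Sp7 locus in old and 11.1% in young, and 10.02% of the Alpl locus in old and 8.83% in young. Pth1r had 8.59% in old and 9.69% in young, and Spp1 had 7.93% in old and 10.01% in young. Ibsp was the least covered, at 2.03 ± 1.13% in old and 3.13 ± 0.60% in young (SD, n = 3 each). The median locus had 4.24% in old and 4.26% in young, and Ibsp in both ages and Dmp1 in old were below it. Among the strongest peaks, Alpl had 5.01% in old and 3.70% in young and Spp1 4.84% in old and 4.18% in young, where the median locus had 1.98% in old and 2.01% in young. Neighbours in this order, such as Alpl and Sp7 in old (10.02 ± 0.84% and 11.1 ± 1.44%), differ by less than their spread.

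**Figure D4:**
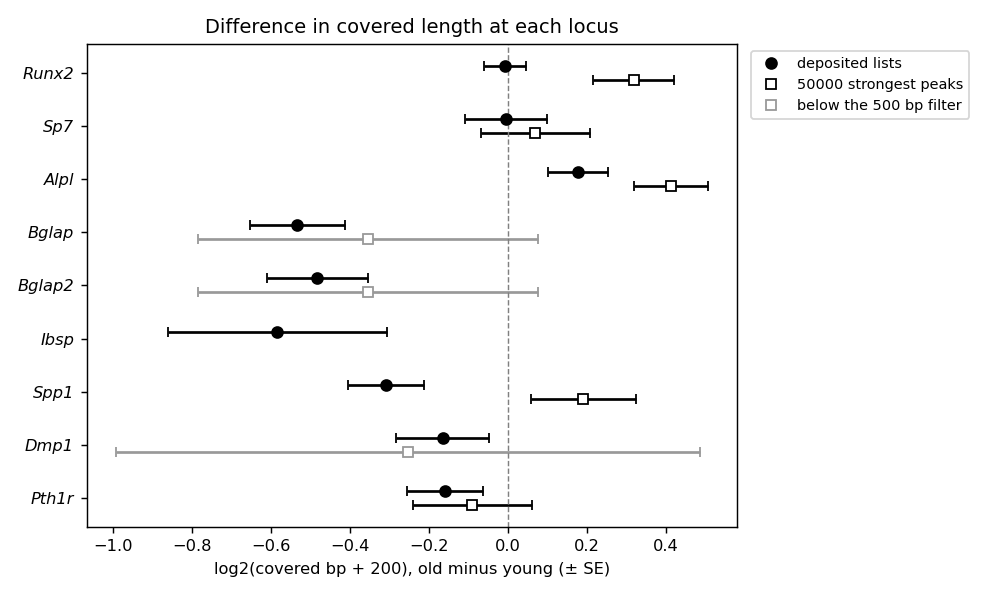
Difference in log2(covered bp + 200), old minus young, with its SE for each of the 9 loci, on the deposited lists (filled circles) and the 50000 strongest peaks (open squares, grey where the locus fell below the 500 bp filter). Bglap is at -0.53 and Alpl at 0.18 on the deposited lists, and Spp1 lies at -0.31 on these lists and at 0.19 among the strongest peaks.

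The strongest peaks gave another balance. Of the 9 loci, 5 passed the filter, all but Bglap, Bglap2, Ibsp and Dmp1. Of these, 4 had higher and 1 a lower estimate in old, with a median of 0.19 beside 0.00 for all loci. The differences of the other loci were 0.07 (SE 0.14) for Sp7, 0.19 (SE 0.13) for Spp1 and -0.09 (SE 0.15) for Pth1r. None was called (limma, adjusted p under 0.05), beside 1.28% of 14395 loci. After scaling, the groups were apart at Runx2 and Alpl, beside 20.3% of loci, while the unscaled Runx2 values overlap. Nothing is read from these counts, since they come from the lists behind the choice of genes.

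Peaks of the 6 libraries merged into 290 regions in the 8 windows on the deposited lists, of which 89 were found in all 6 libraries (30.7%, against 30% of 403801 regions in the genome) and 105 in 1 library (36.2%, against 40.7%). The 2 regions found in all 3 old and in no young library (0.69%, against 0.513% in the genome) were the weak Pth1r regions given above. The 4 found in all 3 young and in no old library (1.38%, against 1.42%) were a pair at Alpl, chr4:137740497-137740641 and chr4:137750208-137750461, and one each at Spp1, chr5:104444614-104444754, and Pth1r, chr9:110719270-110719593. Each of these was weak, with no rank better than 79348. Of 44 regions of the strongest peaks, 16 were found in all 6 libraries (36.4%, against 50.9% of 66216 in the genome), 1 in all 3 old and no young library (2.27%, against 3.29%) and 0 in all 3 young and no old library (against 2.59%).

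Peaks were called in all 6 libraries over 4 of the 12 start sites, those of Runx2, Alpl, Ibsp and Spp1, and among the strongest 50000 over 3, all but that of Ibsp. Of all RefSeq start sites, 44.5% had a peak in all 6 deposited lists and 32.7% had one among the strongest of all 6. No library had a peak over 4 of the 12, an inner Alpl start, an inner Spp1 start, the outermost Dmp1 start and the outermost Pth1r start, against 45.2% of all start sites.

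The wider osteoblast lineage, 42 other genes of factors, matrix, Wnt and BMP signalling, had no called locus on the deposited lists, with 18 higher and 24 lower estimates in old and a median of -0.05. The smallest p among them belonged to Lef1, a factor of Wnt signalling (-0.51, SE 0.12, limma adjusted p = 0.0688), Cdh11, osteoblast cadherin (-0.40, SE 0.10, adjusted p = 0.0844), and Gja1, a gap junction protein (-0.44, SE 0.12, adjusted p = 0.0923). Of the 42, 30 passed the filter among the strongest peaks, 18 higher and 12 lower in old with a median of 0.07. There Cdh11 was the 1 locus called wider, with 1125, 1413 and 1362 bp in old against 413, 450 and 654 bp in young (scaled; 1.10, SE 0.17). Tnfsf11, the gene of the osteoclast-inducing ligand RANKL, stood at 0.89 (SE 0.17) and Lrp6, a Wnt co-receptor, at 0.55 (SE 0.11). Cdh11 thus had a lower estimate on the deposited lists and a higher one among the strongest peaks.

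Among 12 chondrocyte genes, 11 were tested on the deposited lists, and Sox6, a cartilage factor, was the 1 called, narrower in old. Its scaled covered length was 7844, 6515 and 6546 bp in old against 10562, 8571 and 10079 bp in young (-0.47, SE 0.09, limma adjusted p = 0.0172). Among the strongest peaks Sox6 stood at -0.84 (SE 0.17), and 6 of the 12 genes passed the filter. None of 12 osteoclast genes was called in either kind of list. The smallest p among them on the deposited lists was that of Tnfrsf11a, the RANKL receptor (-0.21, SE 0.08, limma adjusted p = 0.288).

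Marker lists of other marrow cells were measured in the same way. Over 10 marrow stromal markers, the summed scaled length among the strongest peaks was 14496 to 15254 bp in old and 10082 to 10457 bp in young. On the deposited lists it was 39424 to 44287 bp in old and 37482 to 42648 bp in young, which overlap. Of the stromal markers, 5 of 8 tested had a higher and 3 a lower estimate in old among the strongest peaks, and 6 of 10 a higher and 4 a lower one on the deposited lists. Kitl, a stromal growth factor gene with the smallest p among them on the strongest lists, had 2655, 2022 and 2759 bp in old and 1278, 569 and 431 bp in young among the strongest peaks (1.57, SE 0.29). None of the 10 was at 0 in all libraries of an age, and none was called in either list. Over 10 macrophage markers, the sum among the strongest peaks was 18341 to 19092 bp in old and 22186 to 23135 bp in young. Of the 9 tested there, 8 had a lower and 1 a higher estimate in old. The 1 called narrower was Mertk, an engulfment receptor (-0.53, SE 0.09), beside 63 of all 14395 loci. On the deposited lists the sum over the 10 macrophage markers was 35646 to 38146 bp in old and 37927 to 38503 bp in young, with 5 higher and 5 lower estimates. The part of stromal cells in the differences at the osteoblast loci was not tested.

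**Figure D5:**
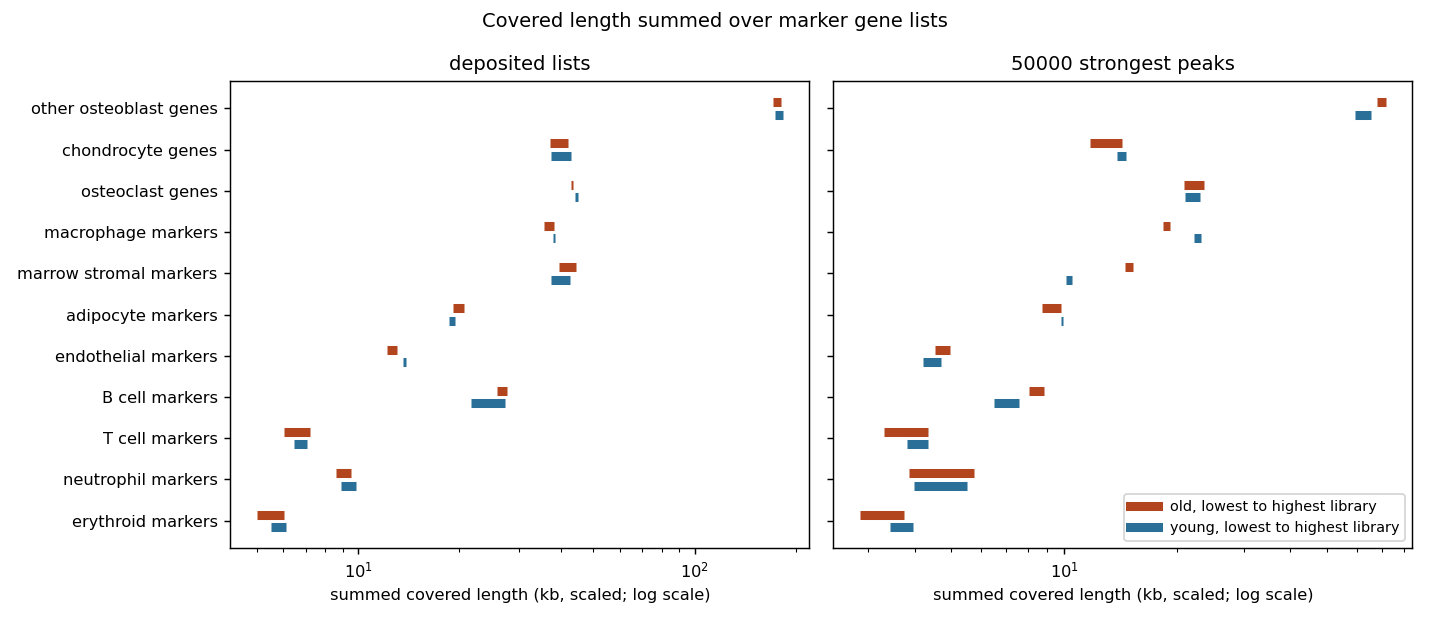
Summed scaled covered length (kb, log axis) of each gene list, drawn from the lowest to the highest of the 3 old (red) and 3 young (blue) libraries, on the deposited lists (left) and the 50000 strongest peaks (right). Among the strongest peaks the stromal bar of old (14496 to 15254 bp) lies right of that of young (10082 to 10457 bp), and the macrophage bar of old lies left of that of young.

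Of the further lists, erythroid Gata1, Hba-a1 and Hbb-bs and T-cell Cd3e and Cd8a had no peak among the strongest in any library. The other genes of these lists, erythroid Klf1 and Epor and T-cell Cd3d, Cd3g and Cd4, had such peaks in all 6 libraries. Erythroid markers summed to 2849 to 3737 bp in old and 3425 to 3943 bp in young among the strongest peaks. T-cell markers summed to 3305 to 4328 bp in old and 3812 to 4330 bp in young. B-cell markers summed to 8034 to 8822 bp in old and 6493 to 7581 bp in young there, where Ebf1, a factor also found in marrow stroma, had 5621, 6659 and 6512 bp in old and 4628, 4620 and 3679 bp in young. The 3 other B-cell markers tested there had lower estimates in old, among them Cd79a at -0.32 (SE 0.14) and Cd79b at -0.30 (SE 0.23). Adipocyte, endothelial and neutrophil markers had sums of 8741 to 9820, 4523 to 4966 and 3868 to 5753 bp in old, against 9791 to 9886, 4196 to 4703 and 3967 to 5507 bp in young. No locus of these lists was called in either kind of list.

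Loci whose scaled log2 covered length followed that of Runx2 most closely over the 6 libraries were Sat2 (Pearson r = 0.995), Sytl1 (0.991) and Fabp3 (0.986). Those most like Spp1 were Cnot6 (0.999), Mgat4c (0.993) and Plag1 (0.992). With 6 points that share their library scaling, 21 of 16952 loci reached an r of 0.95 with Runx2 and 97 with Spp1, so these names are a description of likeness only.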

How the data were processed

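The authors deposited one broad peak list per library, 3 old and 3 young; MACS2 (2.1.0.20140616), Bowtie2 (2.2.6), Trim Galore (0.4.4), cutadapt (1.14) and the mm10 build stand in the submitters' processing notes. Each deposited peak carries a score, a fold enrichment ratio over local background, and its −log10 p and −log10 q, per the values in the files; they were used for ranking and filtering inside each list. For duplicate removal, read-end shifts and reads that match several places, the method is not given in the sources used here.

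Covered bp per locus (gene plus 10 kb) were scaled to equal sums of all loci per library. Loci with an unscaled mean of at least 500 bp were fitted with limma 3.58.1 (R 4.3.3; trend, robust) on log2(bp + 200), old minus young, which understates changes of sparsely covered loci, with Benjamini-Hochberg adjustment over all loci and a threshold of 0.05. Regions are peaks merged where they overlap by 1 bp. The fit was run on simulated normal log2 values with each locus's own mean and spread. Such values cannot test effects of peak calling or library coverage. Python 3.11.15, numpy 2.4.6, pandas 2.3.3 and matplotlib 3.10.9 were used. Members and lists were chosen with earlier results of these data known. Named beside the 9 genes were called loci of each list, otherwise the 3 with the smallest p (in part shown), the 3 loci most like Runx2 and Spp1, regions of 1 age and each window's strongest region. A window's strongest region was the one with the best rank in any library. Alternatives were other peak thresholds, list lengths, windows, scalings, pseudocounts and filters, leaving out single libraries and a replicate block.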

Additional observations from a re-analysis of the deposited data

How the results depend on the processing

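On the deposited lists the 1 called member, Bglap, remained 1 with a pseudocount of 50 bp, quantile normalization, no filter, 5 kb windows and the replicate block, and the count was 0 with peaks of a −log10 q of at least 2 or 5, no scaling, 25 kb windows, the number of peaks, or the covered length of the library as a covariate, the last chosen after seeing the data. Leaving out each library gave 0 to 1 called members. Over all loci, 3 were called wider and 6 narrower of 15402 at a −log10 q of at least 5. These counts were 2 and 13 of 16952 without scaling and 4 and 4 of 18164 for the number of peaks. A count of 0 members under those settings says little about Bglap. At a −log10 q of at least 2 they were 49 and 97 of 16594, and with 25 kb windows 87 and 106 of 17843. The covariate gave 36 and 24 of 16952. Leaving out 1 library gave 16 to 92 wider and 15 to 260 narrower loci. Bglap's difference was -0.68 without scaling, -0.78 with 5 kb and -0.35 with 25 kb windows, and -0.01 for the number of peaks; with the replicate block its adjusted p was 0.0363 (limma). Replicate numbers did not pair the libraries (same-number correlations of deviations 0.14, 0.13 and -0.16). Without scaling, the median of all loci moved to -0.14 (deposited lists) and -0.11 (strongest peaks). Among the strongest peaks the count of 0 became 1 (Alpl) with the 25000 strongest and was 0 in every other alternative. The replicate block and the covariate called 0 of all 14395 loci, so a member count of 0 was fixed there. No scaling called 1 locus wider and 4 narrower. Leaving out an old library called 0 to 5 wider and 3 to 6 narrower, so 0 members says little there too. The other alternatives called 45 to 195 wider and 6 to 120 narrower.

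Some estimates changed sign. On the deposited lists Runx2 was 0.04 at a −log10 q of at least 2, 0.16 at 5, 0.02 with quantile normalization, 0.04 with the covariate, and -0.06 to 0.04 with 1 library left out (0.04 without old library 2 and 0.03 without young library 1). Sp7 was 0.12 at a −log10 q of at least 5, 0.06 with 25 kb windows, 0.20 for the number of peaks, 0.03 with the covariate, and -0.09 to 0.09 with 1 library left out (0.09 without old library 3 and 0.08 without young library 1). Spp1 was 0.01 at a −log10 q of at least 5, Dmp1 0.01 with 5 kb windows and Alpl -0.30 for the number of peaks. Among the strongest peaks, Pth1r was 0.07 with the 25000 strongest, Spp1 -0.05 with the 100000 strongest, Sp7 -0.04 without scaling and 0.00 with the covariate, and Dmp1 0.75 with 25 kb windows; with 1 library left out, Sp7 was -0.03 to 0.15 and Pth1r -0.21 to 0.02, the sign changing without old library 2 in both. The cause was not tested. Of the other single-locus values, 125 on the deposited lists and 73 among the strongest peaks kept their direction and side of the threshold, and 10 and 1 changed side.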
